A study of Sorghum bicolor with 5 samples.

Results

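The comparison set plant number 3 of 2 sorghum lines against the other plants of the same lines. Plant 3 of epi-F3 low and plant 3 of epi-F3 high formed the first group, with 2 libraries. Plants 1 and 2 of epi-F3 low and plant 1 of epi-F3 high formed the second, with 3 libraries, so that all 5 libraries of the series were used. Epi-F3 low is line 15, labelled Epi15 and not enhanced in growth, and epi-F3 high is line 68, labelled Epi68 and enhanced. Both lines are third-generation progeny in the Tx430 background, an inbred grain sorghum, and trace back to plants in which the organelle-targeted protein MSH1 had been silenced. All plants were untreated, grown in a greenhouse and sampled as young leaves at 4 weeks, with 1 library per plant. The labels do not say whether plants numbered 3 shared a position, a harvest or any handling. The division was proposed after earlier fits of these counts had shown many genes moving across it, so gene differences between the groups are a description, without p-values, and do not show that plant number matters.

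A young grass leaf is not uniform. It grows from dividing cells at its base, and cells toward the tip build chloroplasts and photosynthetic complexes, so that leaf position and the exact zone sampled change which genes are abundant. Genes of defence and of DNA replication are other groups whose levels vary with the age and condition of a leaf.

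Gene counts were 68979436, 58755600 and 64523034 in epi-F3 low plants 1, 2 and 3, and 48372266 and 59493403 in epi-F3 high plants 1 and 3. At the depth of the smallest library, 24025 and 24461 features had a count in the plant 3 libraries and 22864, 22259 and 22302 in the others. Both plant 3 libraries thus held more detected features than each other library. The first principal component, with 50.2% of the variance, placed plant 3 of the lines at 30.9 and 62.1 and the other libraries at -6.79, -31.1 and -55.0. The share of reads outside annotated genes averaged 4.49% in plant 3 libraries and 5.71% in the others (exact permutation test, two-sided, p = 0.4, n = 2 and 3; the smallest p this design allows is 0.1). Photosystem genes marked all 5 libraries as green leaf: PSAD2, a photosystem I subunit, had 627 to 1563 CPM, the read count scaled to a common library size after TMM normalization.

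**Figure D1:**
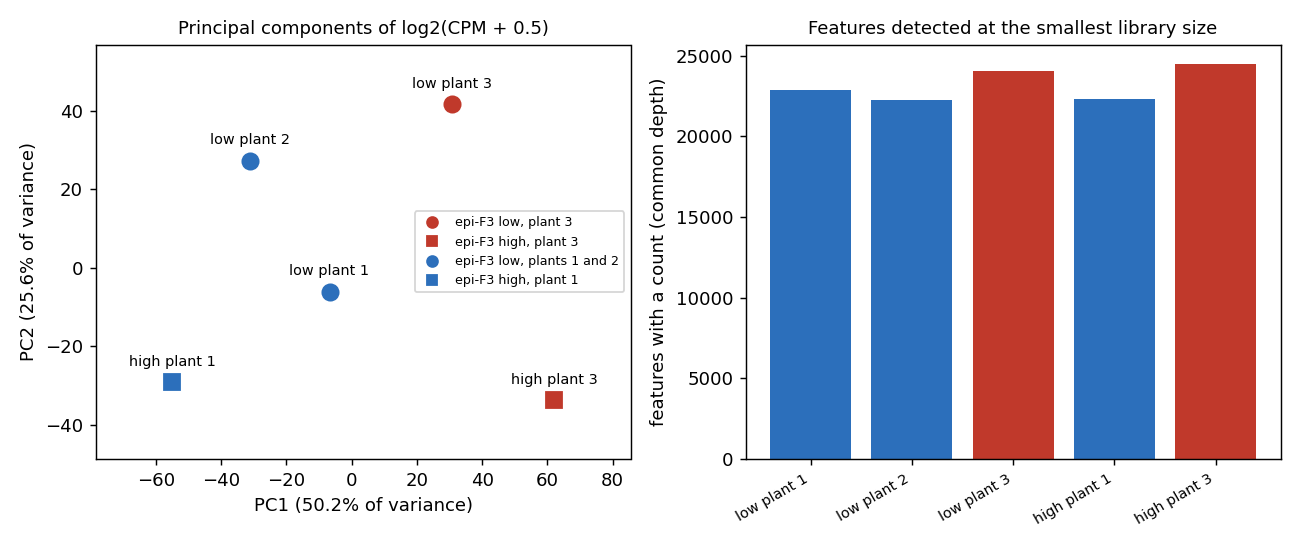
Left, the 5 libraries on the first and second principal components of log2(CPM + 0.5), in arbitrary units; right, features with at least 1 count after reduction to the smallest library. Red marks plant 3, blue the other plants, circles epi-F3 low and squares epi-F3 high; both red points lie above 30 on the first component.

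Far more genes were higher in plant 3 than lower. With line as a covariate, edgeR called 649 of 23098 genes higher (2.81%) and 100 lower (0.433%), together 3.24%. A call needed an adjusted p no higher than 0.1 together with a log2 change of 0.5 or more in either direction. Without the line term 85 were higher and 2 lower (0.377%), and all 87 were among the calls of the fit with line. That count fell to 0 in edgeR on leaving out epi-F3 low plant 2, epi-F3 high plant 1 or epi-F3 high plant 3, where 2684, 2392 and 2270 genes had an unadjusted p under 0.05. DESeq2 without the line term called 1375 higher and 398 lower. DESeq2 with line called 1581 higher and 504 lower, which put 75.8% of its calls on the higher side against 86.6% in edgeR. The calls with line depended on single plants: leaving out epi-F3 low plant 2 left 274 higher, and leaving out epi-F3 low plant 1 gave 1615. Leaving out either epi-F3 high plant left epi-F3 low alone to carry the plant 3 difference, because the line term took up the remaining library. Leaving out epi-F3 low plant 3 left epi-F3 high alone to carry it. Calls of those fits therefore describe 1 line.

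Both plant 3 libraries lay above the other 3 for 4524 of the 23098 genes (19.6%) and below them for 3371 (14.6%). Of the genes called higher, 609 of 649 had such separate groups, as had 70 of the 100 called lower. The calls were made on these same libraries, so separate groups and larger count shares of called genes follow in part from the call. The called-higher genes took 7.30% of counts in epi-F3 low plant 3 and 5.56% in epi-F3 high plant 3. In the other libraries they took 3.44%, 2.77% and 1.98%. The Wilson 95% interval of the largest share ran from 7.29% to 7.30% and, like all intervals and floors here, covers counting error only. In bulk leaf, fewer cells of a type and less RNA per cell cannot be told apart.

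The plant 3 difference was then taken within each line, as the log2 ratio of CPM + 0.5. These ratios share no library: in epi-F3 low it was plant 3 over the mean of plants 1 and 2, and in epi-F3 high plant 3 over plant 1. Across the 23098 genes, 62.6% had the same sign in both lines, 7316 positive and 7133 negative. Pearson's r across genes was 0.445 and Spearman's rho 0.399, as a description, since genes are not independent replicates. The division was also chosen on these same counts, so the agreement between the lines is not independent evidence for it. Ratios of at least 1 were found for 1130 genes in epi-F3 low and 2181 in epi-F3 high, and 637 genes reached it in both, which is 56.4% of the first list and 29.2% of the second. Ratios of -1 or less were found for 262 and 1014 genes, with 81 in both. The median ratio of the called-higher genes was 1.31 in epi-F3 low and 1.5 in epi-F3 high, against -0.01 and 0.02 over all genes. Those genes were called on the same libraries, so their ratios describe the call and do not support it.

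**Figure D2:**
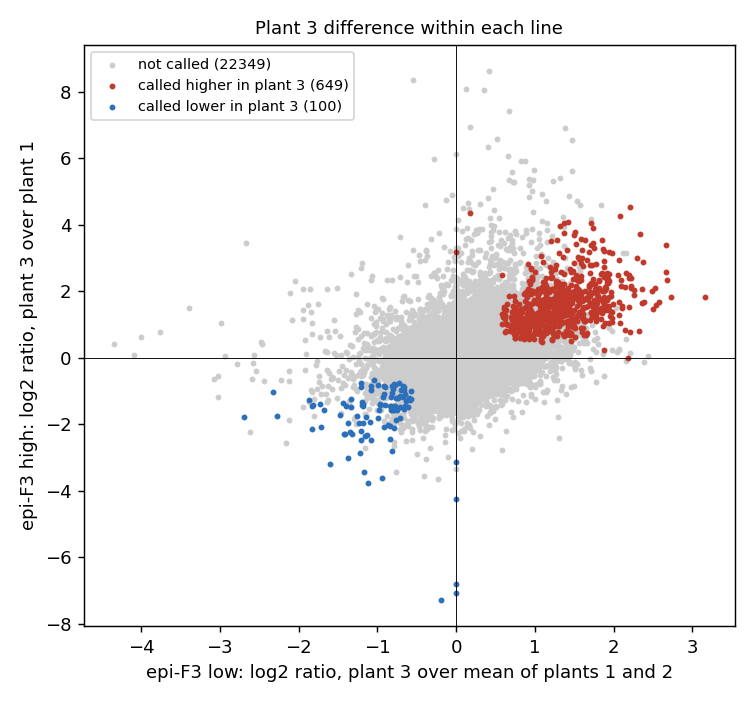
Each point is 1 of the 23098 genes; the horizontal axis is the log2 ratio of plant 3 to the mean of plants 1 and 2 in epi-F3 low and the vertical axis the log2 ratio of plant 3 to plant 1 in epi-F3 high. Red marks the 649 genes called higher and blue the 100 called lower. Of the red points, 647 are positive on both axes, which follows in part from the call.

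Which plant 3 library was the higher one separated the called-higher genes. Epi-F3 low plant 3 was highest for 449 of the 649 and epi-F3 high plant 3 for 200, and epi-F3 high plant 1 was lowest for 524. Gene names came from the Arabidopsis homologs that the study listed for 1089 genes, picked on the line difference in these same libraries, so they are not an independent sample. They cover 38 of the 649 genes called higher and 24 of the 100 called lower.

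Of the 38 called-higher genes with a homolog, 17 were highest in epi-F3 low plant 3 and 21 in epi-F3 high plant 3. THI1 (SORBI_3003G191000, chromosome 3), which makes the thiazole part of thiamine in the chloroplast, had 346, 352 and 1070 CPM in epi-F3 low plants 1, 2 and 3 and 208 and 387 in epi-F3 high plants 1 and 3. The groups did not overlap, and the log2 fold change was 1.31 ± 0.22 (SE). PSAO (SORBI_3006G073500, chromosome 6), a photosystem I subunit, had 913, 967 and 2036 CPM in epi-F3 low and 512 and 879 in epi-F3 high. PSAO was chosen after its values were seen, and its groups overlapped because epi-F3 high plant 3 stayed below epi-F3 low plants 1 and 2. The antenna protein gene LHCB5 had 1662, 1817, 3646, 978 and 1650 CPM in the same order, with a log2 fold change of 0.93 ± 0.23, and was not called.

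DMR6, AATP1 and MLO1 were highest in epi-F3 high plant 3. DMR6 (SORBI_3001G314300, chromosome 1), named in Arabidopsis for its role in downy mildew susceptibility, had 1.86, 1.78 and 9.30 CPM in epi-F3 low plants 1, 2 and 3 and 1.55 and 38.5 in epi-F3 high plants 1 and 3. Its log2 fold change of 3.36 ± 0.50 was the largest among called-higher genes with a mean of at least 5 CPM. AATP1 (SORBI_3008G191300, chromosome 8), an AAA-type ATPase, had 2.43, 5.13, 21.1, 5.36 and 76.1 CPM in that order. MLO1 (SORBI_3004G182300, chromosome 4), of the membrane protein family named for barley mildew resistance, had 18.6, 15.6, 36.2, 24.7 and 82.3 CPM. In each of these genes both plant 3 libraries stood above all others, by less in epi-F3 low than in epi-F3 high.

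The potassium transporter POT5 (SORBI_3006G061300) had 21.6, 15.04, 40.1, 19.5 and 95.8 CPM, with a log2 fold change of 1.64 ± 0.30. CHI3 (SORBI_3008G030100), whose homolog is labelled a probable chalcone-flavonone isomerase, had 8.99, 6.89, 19.9, 10.6 and 42.3 CPM. An aspartyl protease family gene, SORBI_3004G258300, had 13.7, 4.97, 44.8, 6.33 and 159 CPM, with a log2 fold change of 3.32 ± 0.61. A copper transport family gene, SORBI_3006G113900, had 7.64, 4.08, 20.6, 5.42 and 87.7 CPM. In these 4 genes epi-F3 high plant 3 was highest and epi-F3 low plant 3 second. Other called-higher genes, chosen after their values were seen, had the opposite order. The amino acid permease gene BAT1 had 36.2 CPM in epi-F3 low plant 3 and 19.2 in epi-F3 high plant 3, and the lectin receptor kinase gene SORBI_3001G452700 had 72.2 and 26.2. Receptor kinases sense signals at the cell surface, and 16 of their genes were among the 1089 with a listed homolog. Of the 16, 4 were called higher and none lower, where 2.81% and 0.433% of all genes were. Over the 1089, 3.49% were called higher, and 24 genes were called lower. The median log2 fold change of the 16 was 0.65, against 0.22 over the 1089 and 0.00 over all genes. The ratio of plant 3 to the other plants was positive for 15 of the 16 in epi-F3 low and for 10 in epi-F3 high. RKS1, the most abundant of the 16, had 77.2, 135, 147, 87.3 and 68.7 CPM and was not called.

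**Figure D3:**
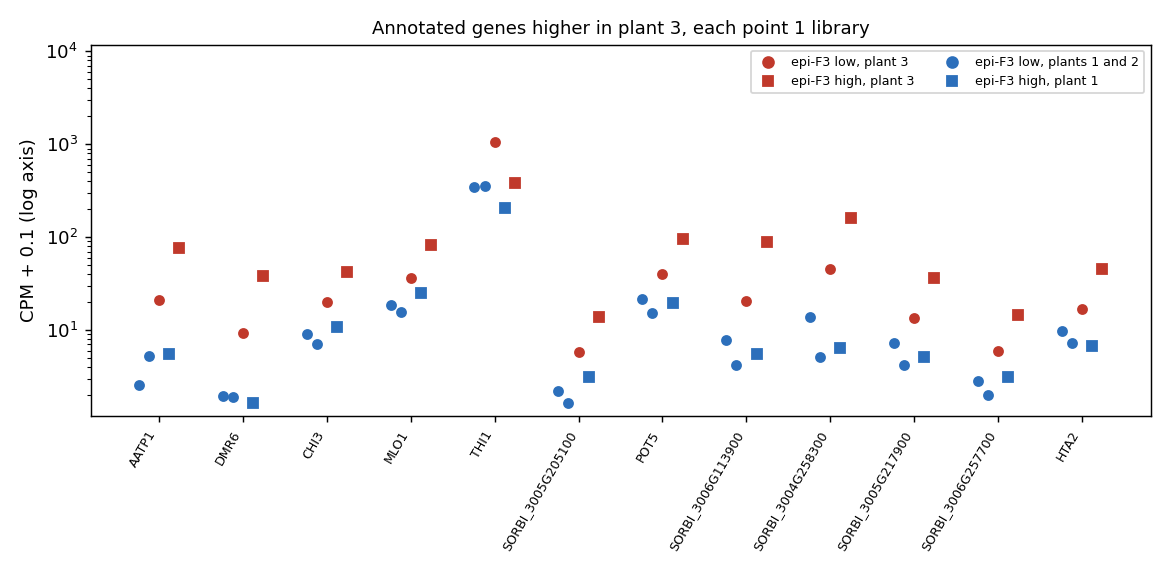
CPM + 0.1 on a log axis for the 12 annotated genes called higher that have separate groups, a mean of at least 5 CPM and the lowest p. Each point is 1 library, red for plant 3 and blue for the other plants, circles for epi-F3 low and squares for epi-F3 high; both red points lie above all blue points in every gene.

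Most of the abundant called-higher genes had no homolog name here. SORBI_3010G241000 had 1254, 879 and 4013 CPM in epi-F3 low plants 1, 2 and 3 and 431 and 2047 in epi-F3 high plants 1 and 3, with a log2 fold change of 2.06 ± 0.26. SORBI_3001G078000, first in the ranking of called-higher genes, had 59.4, 38.5, 315, 19.6 and 102 CPM in that order and a log2 fold change of 2.56 ± 0.22. Both had separate groups and peaked in epi-F3 low plant 3.

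Core histones package DNA, and 14 of their genes were among the 1089 with a listed homolog. All 14 had both plant 3 libraries above the others, where 19.6% of all genes had. Of the 14, 2 were called higher, where 2.81% of all genes were. Those 1089 were picked on the line difference in these libraries, so all genes are no matching background for the 14. Their summed level was 23.9, 12.5 and 46.1 CPM in epi-F3 low plants 1, 2 and 3 and 12.5 and 273 in epi-F3 high plants 1 and 3. The median log2 ratio was 1.07 in epi-F3 low and 3.71 in epi-F3 high. HTA2 (SORBI_3002G329900), an H2A histone, had 9.66, 7.18, 16.8, 6.64 and 45.3 CPM.

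Replication genes from the same 1089 did not share that pattern. The 14 genes of the MCM helicase, which unwinds DNA, and of replication origins summed to 59.0, 36.6 and 55.9 CPM in epi-F3 low plants 1, 2 and 3 and to 37.1 and 405 in epi-F3 high plants 1 and 3. None was called in the plant 3 comparison, where 2.81% of all genes were called higher and 0.433% lower. Their median log2 ratio was 0.13 in epi-F3 low and 2.63 in epi-F3 high. The 8 DNA polymerase and replication fork genes had median ratios of -0.04 and 3.78, and none was called. At the shares over all genes, lists this short can have no call. In epi-F3 low, plant 3 lay within the range of its line for both summed levels.

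Further lists were also drawn from the 1089 genes with a listed homolog. Of these, the WRKY, pathogenesis-related and peroxidase lists had larger median ratios in epi-F3 high than in epi-F3 low. Because the 1089 were picked on the line difference, a high level in epi-F3 high plant 3 alone could bring a gene in. The part of that choice in these medians was not tested. WRKY transcription factors, which act in defence, had median ratios of 0.04 in epi-F3 low and 2.64 in epi-F3 high over 10 genes. Pathogenesis-related genes had 0.70 and 4.60 over 7 genes, and peroxidases 0.00 and 2.21 over 9. None of these 3 lists had a called gene, where 2.81% of all genes were called higher and 0.433% lower. At those shares, lists this short can have no call. The chitinase CHIB1 of the pathogenesis-related list had 40.6, 9.60, 91.1, 14.1 and 352 CPM. It was 1 of 3 in that list with both plant 3 libraries above the others, where 19.6% of all genes had this. PR1 had 6.57, 0.109, 4.42, 0 and 132 CPM, and the glucanase gene SORBI_3009G119200 had 43.2, 77.7, 98.4, 31.6 and 37.5. In both of these the groups overlapped. The 9 auxin genes had a median log2 fold change of -0.19, the 5 heat shock genes 0.10 and the 17 cytochrome P450 genes 0.92, with no call in any of them. The cytochrome P450 median ratio was not larger in epi-F3 high, at 0.36 in epi-F3 low and 0.22 in epi-F3 high. The auxin median changed sign without epi-F3 low plant 1 or plant 3 (0.04 and 0.12), and the heat shock median without epi-F3 high plant 1 or plant 3 (-0.13 and -0.12). The other 17 lists with a tested gene held 34 genes and no call, beside the same shares over all genes.

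Whether the plant 3 difference had the same size in both lines was fitted as an interaction in edgeR, with 1 residual degree of freedom and 1 library against 1 in epi-F3 high. Its calls describe these libraries, since the division was chosen on them. It was called for 37 genes (0.160%), 30 with a higher plant 3 log2 ratio in epi-F3 high than in epi-F3 low and 7 with a lower one. With RLE size factors the count was 197, so the number of such genes was not stable. All 30 were highest in epi-F3 high plant 3, and 26 were lowest in epi-F3 high plant 1. A higher or lower ratio does not mean a larger change in that line, nor the same direction in both lines. In all 7 genes with a lower ratio, epi-F3 high plant 3 lay below plant 1. Epi-F3 low plant 3 lay above both other plants in 4 of them. In epi-F3 low, plant 3 lay above both other plants in 15 of the 30, below both in 10 and within their range in 5. POLA (SORBI_3003G369200), the catalytic subunit of DNA polymerase alpha, had 7.42, 7.18 and 6.24 CPM in epi-F3 low plants 1, 2 and 3 and 2.80 and 44.4 in epi-F3 high plants 1 and 3. Its interaction was 4.21 ± 0.47 (SE) on the log2 scale. The helicase gene MCM4 had 6.83, 2.63, 6.45, 2.21 and 75.8 CPM. WRKY70 (SORBI_3008G060300), a regulator of salicylic acid responses in Arabidopsis, had 6.13, 6.35, 11.9, 4.04 and 64.7 CPM. HST, of lignin precursor synthesis, was 1 of the 7, with 51.2, 66.3, 148, 52.0 and 26.1 CPM. CSLD3, also of the 7, had 50.5, 33.7, 43.8, 176 and 32.9 CPM, with its larger plant 3 change in epi-F3 high. HST and CSLD3 were chosen after their values were seen.

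**Figure D4:**
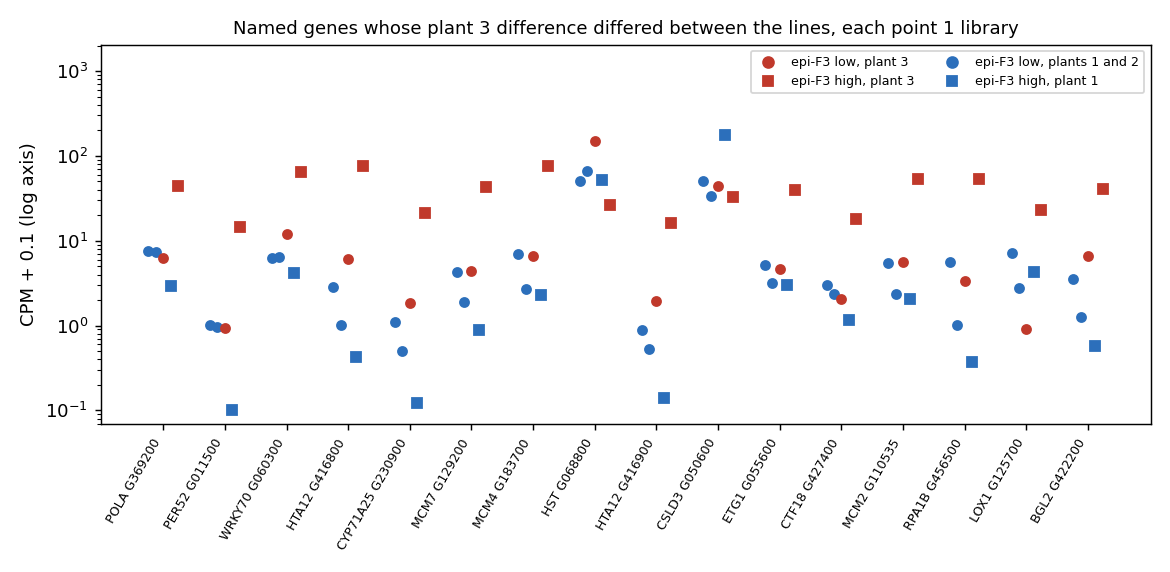
CPM + 0.1 on a log axis for the genes with a homolog name among the 37 with a called interaction. Each point is 1 library, with colours for plant number and shapes for line; epi-F3 high plant 3 (red squares) is highest for all but HST and CSLD3.

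Of the 100 genes called lower, 23 had an Arabidopsis homolog encoded in the chloroplast genome. Among the 1089 genes with a listed homolog, 40 had matches with locus codes of the chloroplast genome (ATCG). Of the 40, 23 were called lower and none higher, where 0.433% of all genes were called lower and 2.81% higher. Of the 1089, 24 were called lower and 38 higher. The 1089 were picked on the line difference in libraries that include epi-F3 high plant 1, so its high level is not an independent result. The list of 40 was made after the calls were seen. Its summed level was 171, 221 and 84.4 CPM in epi-F3 low plants 1, 2 and 3 and 1212 and 261 in epi-F3 high plants 1 and 3. Epi-F3 high plant 1 was highest for all 40, and epi-F3 low plant 3 was lowest for 37. The groups were separate for only 6 of the 40, because epi-F3 high plant 3 lay near the level of epi-F3 low plants 1 and 2. Without epi-F3 high plant 1, 2 were called lower, and without epi-F3 high plant 3, 12. Copies of chloroplast genes in the nuclear genome can share reads with the chloroplast genome itself, which makes their counts uncertain. Whether the 40 are such copies was not tested.

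A run of 7 neighbouring tested genes on chromosome 3, SORBI_3003G168500 to SORBI_3003G169200, was called lower, and all 7 belong to that list. SORBI_3003G169100, with the homolog ATCG00680, had 22.1, 31.9 and 9.43 CPM in epi-F3 low plants 1, 2 and 3 and 136 and 41.0 in epi-F3 high plants 1 and 3. Within each line plant 3 was the lowest, but the groups overlapped.

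**Figure D5:**
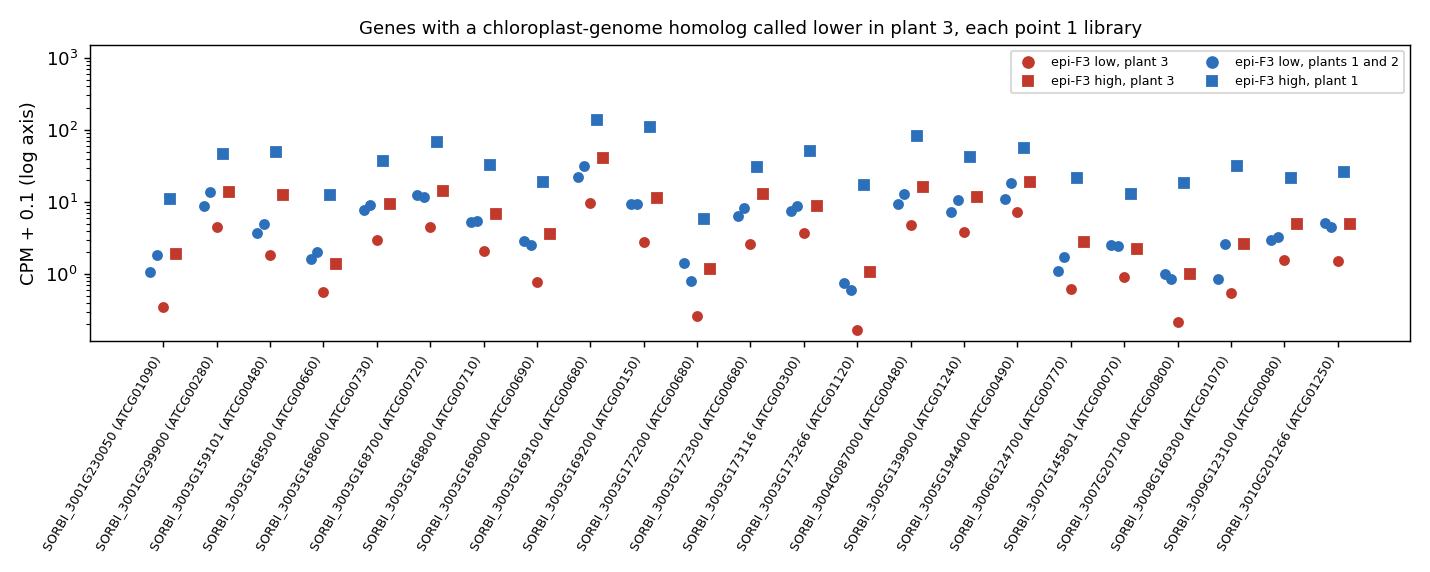
CPM + 0.1 on a log axis for the 23 genes called lower whose Arabidopsis homolog is encoded in the chloroplast genome. Each point is 1 library, with colours for plant number and shapes for line; epi-F3 high plant 1 (blue squares) is highest and epi-F3 low plant 3 (red circles) lowest in every gene.

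Outside that list 77 genes were called lower, 68 of them with separate groups. SORBI_3001G480800 had 299, 189 and 90.3 CPM in epi-F3 low plants 1, 2 and 3 and 329 and 127 in epi-F3 high plants 1 and 3, with a log2 fold change of -1.41 ± 0.24. SORBI_3010G090500 had 269, 235, 134, 303 and 113 CPM. Both plant 3 libraries were the lowest in these genes. The lower calls of largest size were of another kind: SORBI_3006G007300 had 76.8 CPM in epi-F3 high plant 1, 0.142 in epi-F3 low plant 1 and no count in the other 3 libraries. SORBI_3006G036566 and SORBI_3010G145500 had 66.7 and 55.0 CPM in epi-F3 high plant 1 and no count elsewhere, so that these calls describe 1 plant. Only BGLU16 (SORBI_3008G080400), a beta-glucosidase, had a named homolog among the lower calls, with 13.9, 20.4, 7.16, 47.9 and 28.1 CPM and overlapping groups.

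Counts seen in one group only were also uneven. Both plant 3 libraries had counts for 527 features with none in the other 3 libraries, while 17 had counts in all 3 others and none in plant 3; the second condition asks for 3 libraries and is the stricter one. The median of the 527 was 5 counts over both libraries, and 4 had at least 10 in each. SORBI_3007G059200 had 34 and 57 counts in plant 3 of epi-F3 low and epi-F3 high, at least 43.1-fold above the 3 counts over the group that no observed count allows. SORBI_3010G248500 had the most, 635 counts, of which 631 came from epi-F3 high plant 3.

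The called-higher share by chromosome ran from 2.03% on chromosome 8 to 3.31% on chromosome 1, and the called-lower share from 0.244% on chromosome 5 to 0.591% on chromosome 7.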

How the data were processed

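The authors trimmed paired-end reads with Trim Galore 0.4.1, and aligned them to the sorghum NCBIv3 assembly using STAR 2.7.3a. Reads mapping to 1 place only were retained, and QoRTs gave the count of each gene. The deposited values are raw counts per gene; the 5 summary lines closing each list entered neither the fits nor the library sizes. The strand setting is not given in the sources used here. The submitters' notes also name edgeR 3.26.8 and DESeq.

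Features needed 10 counts summed over all libraries; the 23098 of 35567 that passed were fitted with edgeR 4.0.16 in R 4.3.3 (TMM, quasi-likelihood, Benjamini-Hochberg), with line as a covariate (2 against 3 libraries), without it, and with the interaction. Standard errors were derived from the F statistic and are approximate. Spread between libraries is that between single plants. The gene table used for names matched 0 of the gene IDs, so names came from Arabidopsis homologs in the study's supplement; promoter motifs were not analysed here. Members and gene lists were chosen with earlier results of these data known. Named genes were the 12 annotated called genes per direction with separate groups, at least 5 CPM and the lowest p, the 3 most abundant of each list, and the 5 largest changes per direction; a selection of these is shown, and no lower gene met the first condition. Features detected come from the same counts and were described without a test. Scripts were tested on simulated data. Alternatives were DESeq2 1.42.0, limma 3.58.1 (voom), the likelihood ratio test, other filters, size factors and thresholds, and each library left out.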

Additional observations from a re-analysis of the deposited data

Results flagged for a closer look

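The plant 3 difference differed between the lines for 37 genes by the interaction in edgeR, at an adjusted p no higher than 0.1. Of the genes named by the rule, POLA had an interaction of 4.21 on the log2 scale (epi-F3 high over epi-F3 low), WRKY70 of 3.07, the H2A histone gene HTA12 (SORBI_3001G416800) of 6.16, MCM4 of 4.66 and RPA1B, a subunit of the single-strand DNA binding complex, of 7.64. In each of the 5, epi-F3 high plant 3 was the highest library and epi-F3 high plant 1 the lowest. The division was chosen on these libraries and the difference in epi-F3 high is 1 library against 1, so these values are a description, and the part of plant 1 in it was not tested.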

How the results depend on the processing

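With line in the model, higher and lower calls numbered 1581 and 504 with DESeq2, 1386 and 262 with the likelihood ratio test, 290 and 30 at the stricter threshold, and 85 and 2 with no line term. Lower calls also moved to 155 with limma-voom, 170 with no filter, 59 with filterByExpr and 60 where each line had at least 10 counts. Leaving out 1 library gave 274 to 1615 higher and 19 to 580 lower calls; of the 749 genes, 288 to 747 were called again. The chloroplast-genome homologs called lower went from 23 to 35 with DESeq2 and ranged from 2 to 33 without 1 library. With no line term, calls numbered 1375 and 398 with DESeq2, 1292 and 163 with the likelihood ratio test, 556 and 41 with no filter, 191 and 8 with non-legacy quasi-likelihood settings, and 0 and 0 at the stricter threshold, where 3538 genes had an unadjusted p under 0.05 in edgeR; without 1 library they ranged from 0 to 432 and 0 to 48. Interaction calls numbered 197 with RLE size factors, 234 with DESeq2 and 565 with no filter. The cause was not tested.

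The median log2 fold change reversed for DNA polymerases and replication fork (-0.047 without epi-F3 high plant 1 and -0.036 without epi-F3 high plant 3, in a range up to 4.36) and for peroxidases (-0.0016 without epi-F3 high plant 1, in a range up to 2.37). The smaller medians of the auxin and heat shock lists also changed sign, auxin from -0.19 to 0.04 without epi-F3 low plant 1 and 0.12 without epi-F3 low plant 3, and heat shock from 0.10 to -0.13 without epi-F3 high plant 1 and -0.12 without epi-F3 high plant 3. The legacy quasi-likelihood settings are those of the main fit. The count where each line had 10 counts, the non-legacy settings and the chloroplast-homolog counts were chosen after seeing the data. Interaction fits with a library left out had no residual degrees of freedom or could not be estimated, and were not run. No paired analysis was possible because the groups compared share no plant number and, of the replicate numbers in the labels, only 1; line, which holds plants of both groups, is a term of the fit instead.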
